A study of Mus musculus with 12 samples.

Results

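The genes described here are the receptors for serotonin, dopamine, noradrenaline and adrenaline, histamine and acetylcholine, in RNA from the hypothalamus and the midbrain of mice. They were chosen by symbol, as Htr1 to Htr7, Drd1 to Drd5, Adra1 and Adra2, Adrb1 to Adrb3, Hrh1 to Hrh4, Chrm1 to Chrm5 and the nicotinic subunits (Chrn). No measured value entered this rule, although earlier results of these data were known when it was set. This gave 53 of 32531 gene rows: 14 serotonin, 5 dopamine, 9 adrenergic, 4 histamine, 5 muscarinic and 16 nicotinic genes. All libraries came from adult mice of the Slc17a6-TRAP line JX883, which carries EGFP fused to the ribosomal protein Rpl10a under the control of Slc17a6, the gene of the vesicular glutamate transporter VGLUT2. TRAP-seq (translating ribosome affinity purification with RNA sequencing) compared immunopurified (IP) RNA, captured with antibodies against EGFP, with RNA of the whole dissected region (input). The 4 groups were hypothalamus IP, hypothalamus input, midbrain IP and midbrain input, with 3 libraries each. Fraction was tied to 1 sequencing index throughout, so that index and fraction cannot be told apart. No IP from mice without the tag was used here, and the sources used here do not give how many animals went into a library, so the p-values measure only the spread between these libraries, which may be technical.

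These receptors are how neurons and other cells sense the diffuse transmitter systems of the brain stem, basal forebrain and posterior hypothalamus. Most are G protein-coupled: Gs-coupled members raise cyclic AMP, Gi-coupled members lower it and open inward rectifier potassium channels, and Gq-coupled members act through phospholipase C. The nicotinic receptors and Htr3 are ion channels built from several subunits, and many of these subunits work only in the company of partners. In the hypothalamus amine receptors take part in feeding, arousal and body temperature, and in the midbrain they act on movement, reward and sensory circuits.

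Library depth ranged from 41909019 to 55148109 counts over genes. Slc17a6, which checks the purification, had 3490, 1120 and 1740 CPM (reads of the gene over the library's total, on edgeR's TMM scale) in hypothalamus IP, against 518, 218 and 311 CPM in hypothalamus input. It had 3950, 1860 and 2390 CPM in midbrain IP, against 1240, 501 and 589 CPM in midbrain input. Replicate 1 stood apart for the receptors as well as for Slc17a6: summed over the 53 genes, it had the highest CPM of its group in all 4 groups. It was the highest library in all 4 groups for 15 of 45 receptor genes, against 2167 of all 18128 genes tested. Of the reads assigned to a single place, 2.67% to 3.19% were ambiguous between genes in the IPs and 5.77% to 21.79% in the inputs. En1, a midbrain transcription factor, was lower in hypothalamus IP than in midbrain IP (log2 fold change -6.11 ± 0.71 SE, adjusted p = 0.000645), and Isl1, a hypothalamic one, was higher (6.92 ± 0.83 SE, adjusted p = 0.000756), as the region labels say. In the inputs, En1 averaged 1.16 CPM in hypothalamus and 5.78 CPM in midbrain, a difference that did not pass. Isl1 averaged 35.3 CPM in hypothalamus input and 2.1 CPM in midbrain input.

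Enough reads for a test were found for 45 of the 53 genes. The 8 others were Chrna9, Chrna10, Chrnd, Chrne, Chrng, Drd4, Hrh4 and Htr3b. Chrna10, Chrnd and Hrh4 had no count in any of the 12 libraries, Chrng had 3 in all, Chrne 14, Chrna9 21, Htr3b 25 and Drd4 43. Chrnd, Chrne and Chrng are subunits of the muscle receptor, and Chrna9 and Chrna10 are best known from the inner ear. A count of 0 allows up to 3 counts, which is 0.0537 to 0.071 CPM by library on the TMM scale, and covers counting error only.

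Levels can be compared between genes only per length, here as CPM per kb of exon (GENCODE M21). On that scale Hrh3, the histamine receptor that acts mainly as a brake on transmitter release, had the highest mean over the 12 libraries, 23.9 CPM per kb, followed by Chrna4 with 21.3 CPM per kb. The order of the pair depended on the group: Hrh3 had the higher level in hypothalamus IP (29.8 against 9.19 CPM per kb) and in hypothalamus input (12.8 against 9.23), they were level in midbrain IP (39.1 against 39.3), and Chrna4 was higher in midbrain input (27.6 against 13.8). Chrna4 encodes the alpha subunit that pairs with Chrnb2 in the most common nicotinic receptor of the brain. Over the 12 libraries Drd2 followed with 8.94, Htr2c with 8.03, Htr7 with 6.72, Chrnb2 with 5.46 and Adra1b with 5.28 CPM per kb, although in midbrain IP Htr2c (14.4 CPM per kb) was above Drd2 (11.1). Chrnb2 overlaps Adar on the opposite strand, and since no source used here gives the strand setting of the counting, its level may include reads of that gene. Chrm5 had the highest mean of the muscarinic genes, 3.83 CPM per kb, through the hypothalamus: in midbrain IP it had 1.39 CPM per kb against 3.16 for Chrm3. The annotation gives Chrm5 and Chrm4 a coding length only, so their values per kb are not on the same footing as the rest.

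The promoter windows of 3 genes, picked after their values were seen, are shown as examples of a high and a low level: Hrh3 and Chrna4 have the highest levels per length, and Chrnb4 was near the floor in hypothalamus IP. Each window runs from 250 bases before to 50 bases after the RefSeq start (GRCm38.p6, minus strand, printed 5′ to 3′ along the gene): chr2:180104358-180104657 for Hrh3, chr2:181039128-181039427 for Chrna4 and chr9:55048495-55048794 for Chrnb4. Capitals mark matches to the GC box (GGGCGG or CCGCCC), the TATA box (TATAAA or TTTATA) and the CCAAT box (CCAAT or ATTGG).
Hrh3: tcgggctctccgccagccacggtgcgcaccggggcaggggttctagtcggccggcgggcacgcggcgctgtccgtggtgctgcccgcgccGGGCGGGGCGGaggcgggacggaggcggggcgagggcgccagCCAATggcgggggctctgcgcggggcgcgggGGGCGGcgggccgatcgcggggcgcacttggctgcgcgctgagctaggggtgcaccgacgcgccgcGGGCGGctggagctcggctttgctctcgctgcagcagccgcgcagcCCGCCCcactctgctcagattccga
Chrna4: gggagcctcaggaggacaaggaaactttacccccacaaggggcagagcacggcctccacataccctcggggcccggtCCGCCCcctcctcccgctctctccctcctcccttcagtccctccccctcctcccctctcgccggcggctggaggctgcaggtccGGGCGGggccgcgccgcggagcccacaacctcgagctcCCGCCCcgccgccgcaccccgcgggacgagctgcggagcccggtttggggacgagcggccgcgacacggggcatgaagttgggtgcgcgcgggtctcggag
Chrnb4: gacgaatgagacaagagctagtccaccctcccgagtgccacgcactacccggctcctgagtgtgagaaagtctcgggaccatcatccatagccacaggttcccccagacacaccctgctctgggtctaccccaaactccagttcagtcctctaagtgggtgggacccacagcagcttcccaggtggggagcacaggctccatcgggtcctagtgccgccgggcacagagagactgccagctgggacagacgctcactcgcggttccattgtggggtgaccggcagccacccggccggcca

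The Hrh3 window held 5 GC box matches, 2 of them overlapping, and 1 CCAAT match, with a G+C content of 79.0%. The Chrna4 window held 3 GC box matches at 74.3% G+C, and the Chrnb4 window none of the 3 motifs at 63.0% G+C. Of 49 windows found for 40 of the receptor genes, 28 held a GC box (57.1%), against 35.7% of all 32851 windows. A TATA box was found in 2 of the 49 (4.08%), against 13.6% of all windows, and a CCAAT box in 12 (24.5%), against 37.4%. These are letter matches and say nothing of binding.

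Split by family, only the nicotinic and histamine shares of the receptor signal were without overlap between IP and input in both regions. Between the regions, only the nicotinic and muscarinic shares were without overlap in both fractions. Nicotinic genes took 19.5%, 12% and 15.6% of the summed CPM per kb in hypothalamus IP, against 24.7%, 19.9% and 20% in hypothalamus input. They took 31.6%, 28.5% and 27.5% in midbrain IP, against 39.3%, 33.1% and 34.2% in midbrain input. The nicotinic share was thus lower in IP than in input in both regions with no overlap, and lower in the hypothalamus than in the midbrain in both fractions. The nicotinic sum itself was 77.4, 37.3 and 50 CPM per kb in midbrain IP, against 60, 36.1 and 38.8 in midbrain input. In hypothalamus IP it was 32, 9.95 and 18.6 CPM per kb, against 32.7, 13.4 and 15.9 in hypothalamus input. In both regions these sums overlapped, so the lower share was not a lower summed level. Histamine receptor genes, mostly Hrh3, took 24.6%, 21.8% and 33% in hypothalamus IP, against 14.3%, 20.6% and 18.5% in hypothalamus input. They took 21.9%, 18.8% and 26.3% in midbrain IP, against 9.45%, 12.8% and 17.7% in midbrain input, again without overlap. Muscarinic genes took 11.6%, 15.6% and 9.39% in hypothalamus IP, against 5.36%, 6.49% and 4.57% in midbrain IP. In the inputs they took 10.4%, 7.61% and 6.88% in hypothalamus, against 5.97%, 5.19% and 4.8% in midbrain. These shares are parts of a whole and carry no test, and the muscarinic part rests on the coding lengths named above.

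**Figure D1:**
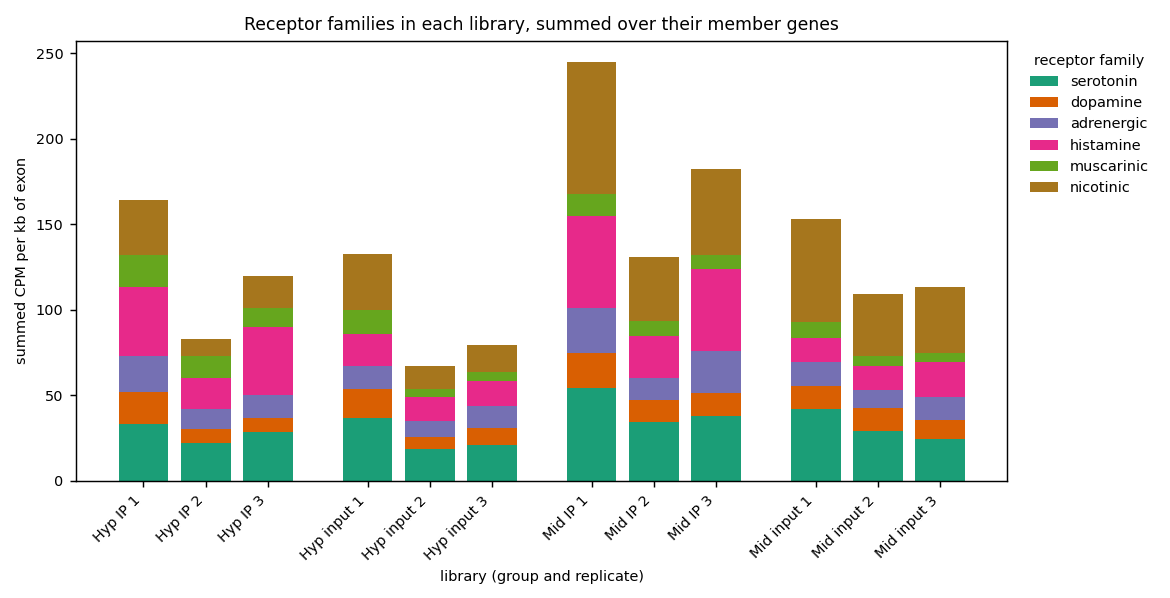
Summed CPM per kb of exon over the receptor genes of each family (y axis) in each of the 12 libraries (x axis, group and replicate), stacked by family. The nicotinic part is largest in the midbrain libraries and the histamine part takes a larger share in IP than in input of the same region, while replicate 1 has the tallest bar of each group.

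In the hypothalamus, a few receptor genes differed between IP and input. Of the 45 receptor genes tested, 4 were higher in hypothalamus IP (Hrh3, Htr7, Drd5 and Adra1b) and 4 were lower (Adra1a, Chrna5, Chrnb3 and Chrnb4), at an adjusted p under 0.05. Over all 18128 genes tested, 14.2% were higher and 19.6% were lower, 33.8% in either direction; no test compares the receptors with that background. The median log2 fold change was -0.10 over the 45 receptors and -0.08 over all genes. All 4 higher genes were G protein-coupled, as were most of the genes tested (9 Gs-, 14 Gi- and 10 Gq-coupled). Of the 12 ion channel subunits tested, none was higher, 3 were lower and 9 did not pass. Adra1a, the other gene called lower, is G protein-coupled, and no test compared the receptor classes. The IP libraries lay above all inputs for 6 of the 45 and below them for 8, against 19.7% and 27.3% of all genes. Adjusted p-values here and throughout are those of the edgeR quasi-likelihood fit, adjusted by Benjamini-Hochberg over all genes.

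Hrh3 (chr2:180099465-180104488, GRCm38) had 113, 50.9 and 117 CPM in hypothalamus IP, against 47.3, 34.9 and 38.8 CPM in hypothalamus input. Every IP library was above every input library, by 2.32-fold in the fit (log2 1.21 ± 0.35 SE, adjusted p = 0.0192). The receptor is Gi-coupled and sits on histamine neurons and on many other terminals. The call was lost when hypothalamus IP replicate 1 (adjusted p = 0.05) or 3 (0.0659), or hypothalamus input replicate 2 (0.0705) or 3 (0.0524), was left out.

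Htr7, a Gs-coupled serotonin receptor known from circadian and temperature circuits, had 33.1, 22.3 and 34.3 CPM in hypothalamus IP, against 21, 8.68 and 12.8 CPM in hypothalamus input. The groups did not overlap, although the lowest IP library was close to the highest input library, and the log2 fold change was 1.08 ± 0.35 SE (adjusted p = 0.0309). The call was lost without hypothalamus IP replicate 1 (adjusted p = 0.0654) or 3 (0.0839) or hypothalamus input replicate 2 (0.113) or 3 (0.0764). Drd5, a Gs-coupled dopamine receptor, had 3.65, 5.88 and 4.27 CPM in hypothalamus IP, against 2.19, 1.49 and 2.09 CPM in hypothalamus input. All 3 IP libraries were higher (log2 fold change 1.26 ± 0.38 SE, adjusted p = 0.0228), and the call was lost without replicate 2 of hypothalamus IP (adjusted p = 0.081) or of hypothalamus input (0.0855), and with limma-voom (0.0837).

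The 2 alpha-1 adrenergic receptors, both Gq-coupled, went opposite ways. Adra1b had 25.6, 13.9 and 17.9 CPM in hypothalamus IP, against 8.15, 4.83 and 10 CPM in hypothalamus input (log2 fold change 1.32 ± 0.45 SE, adjusted p = 0.0383). All 3 IP libraries were higher, but the call was lost without hypothalamus IP replicate 1 (adjusted p = 0.107) or 3 (0.0625), hypothalamus input replicate 1 (0.076) or 2 (0.135), or midbrain input replicate 1 (0.0502), with limma-voom (0.0549) and with library size scaling (0.0522). Adra1a had 11.5, 8.19 and 10.7 CPM in hypothalamus IP, against 35.5, 23.1 and 20.7 CPM in hypothalamus input. It fell by 1.39 ± 0.28 SE on the log2 scale (adjusted p = 0.00246), with no overlap, and the call held with any 1 library left out. The third alpha-1 gene, Adra1d, did not pass (log2 fold change 1.75 ± 1.38 SE, adjusted p = 0.358).

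The nicotinic subunits that were lower belong to less common receptor types. Chrnb3, a beta subunit that joins Chrna6 in receptors of dopamine neurons, had 1.95, 1.27 and 0.412 CPM in hypothalamus IP, against 11.2, 2.92 and 4.49 CPM in hypothalamus input. It fell by 2.35 ± 0.72 SE on the log2 scale (adjusted p = 0.025), without overlap. Without hypothalamus input replicate 1 the log2 fold change was -1.61 and the adjusted p 0.111, and the call was also lost without hypothalamus IP replicate 2 (0.0645) or 3 (0.0752). Chrnb4, the partner of Chrna3 in autonomic and habenular receptors, had 0.322, 0.165 and 0.0937 CPM in hypothalamus IP, against 2.67, 0.519 and 0.644 CPM in hypothalamus input. It fell by 2.71 ± 0.71 SE (adjusted p = 0.0117), with 30 counts over the 3 IP libraries and 188 over the inputs. All IP libraries were below all inputs, but 1 input carried much of the size: without hypothalamus input replicate 1 the log2 fold change was -1.58 and the adjusted p 0.0725. With limma-voom its adjusted p was 0.0535, and in a fit of only the compared groups 0.0615. Chrna5, an accessory subunit whose level is low throughout and which is named here after its values were seen, had no count in hypothalamus IP. It had 14, 17 and 1 counts in hypothalamus input, 32 in all, so that input replicate 3 was itself under the floor of 3 counts per library. Against that floor the mean was at least 3.61-fold lower in IP, through input replicates 1 and 2, and the gene was called lower (adjusted p = 0.032). That call was lost without hypothalamus IP replicate 1 (adjusted p = 0.06), 2 (0.0729) or 3 (0.0698) or hypothalamus input replicate 1 (0.0644) or 2 (0.0707).

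Chrna4 and Chrnb2, the 2 subunits of the most common brain receptor, did not pass. Chrna4 had 62.1, 23.5 and 52.8 CPM in hypothalamus IP, against 72, 28.1 and 39 CPM in hypothalamus input, and the groups overlapped (log2 fold change -0.01 ± 0.43 SE, adjusted p = 0.992). Chrnb2 had a log2 fold change of 0.41 ± 0.39 SE and Chrna7, whose subunit forms receptors on its own, one of 0.62 ± 0.66 SE; neither passed (adjusted p = 0.452 and 0.502). Drd2, the Gi-coupled receptor that leads the dopamine family per length, averaged 20.2 ± 11.7 CPM in hypothalamus IP and 18.8 ± 7.76 CPM in hypothalamus input (SD, n = 3 each), with no call.

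Replicate numbers tracked together across the 2 hypothalamic groups. With the number as a block, 3544 of all 18128 genes tested were higher and 4316 were lower. Among the receptor genes 7 were higher and 7 were lower. The additions on the higher side were Chrm5, a Gq-coupled muscarinic receptor (log2 fold change 1.87, adjusted p = 0.00112), Htr2a (1.04) and Chrm3 (0.93, adjusted p = 0.0192). On the lower side they were Chrna2 (-4.45, adjusted p = 0.049), Htr1f (-1.54) and Htr1a (-0.76). Without the block Chrm5 had 20.4, 15.4 and 10.7 CPM in hypothalamus IP, against 8.76, 4.01 and 1.91 CPM in hypothalamus input, with no overlap and an adjusted p of 0.0572.

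Cell-type markers moved with this contrast. All 10 astrocyte, all 10 oligodendrocyte and all 10 microglial markers were lower in hypothalamus IP, with summed oligodendrocyte markers at 189 to 217 CPM in hypothalamus IP and 2530 to 3410 CPM in hypothalamus input. Of 8 dopamine neuron markers 5 were lower, their sum at 67.2 to 116 CPM in hypothalamus IP against 141 to 240 CPM in hypothalamus input, with none of the 8 at 0. Of 12 GABAergic markers 10 were lower and 1 was higher (sum 301 to 475 CPM in hypothalamus IP, 1910 to 2480 CPM in hypothalamus input). The part of these cell types in the receptor differences was not tested, and in bulk RNA fewer cells of a type and less RNA per cell cannot be told apart.

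**Figure D2:**
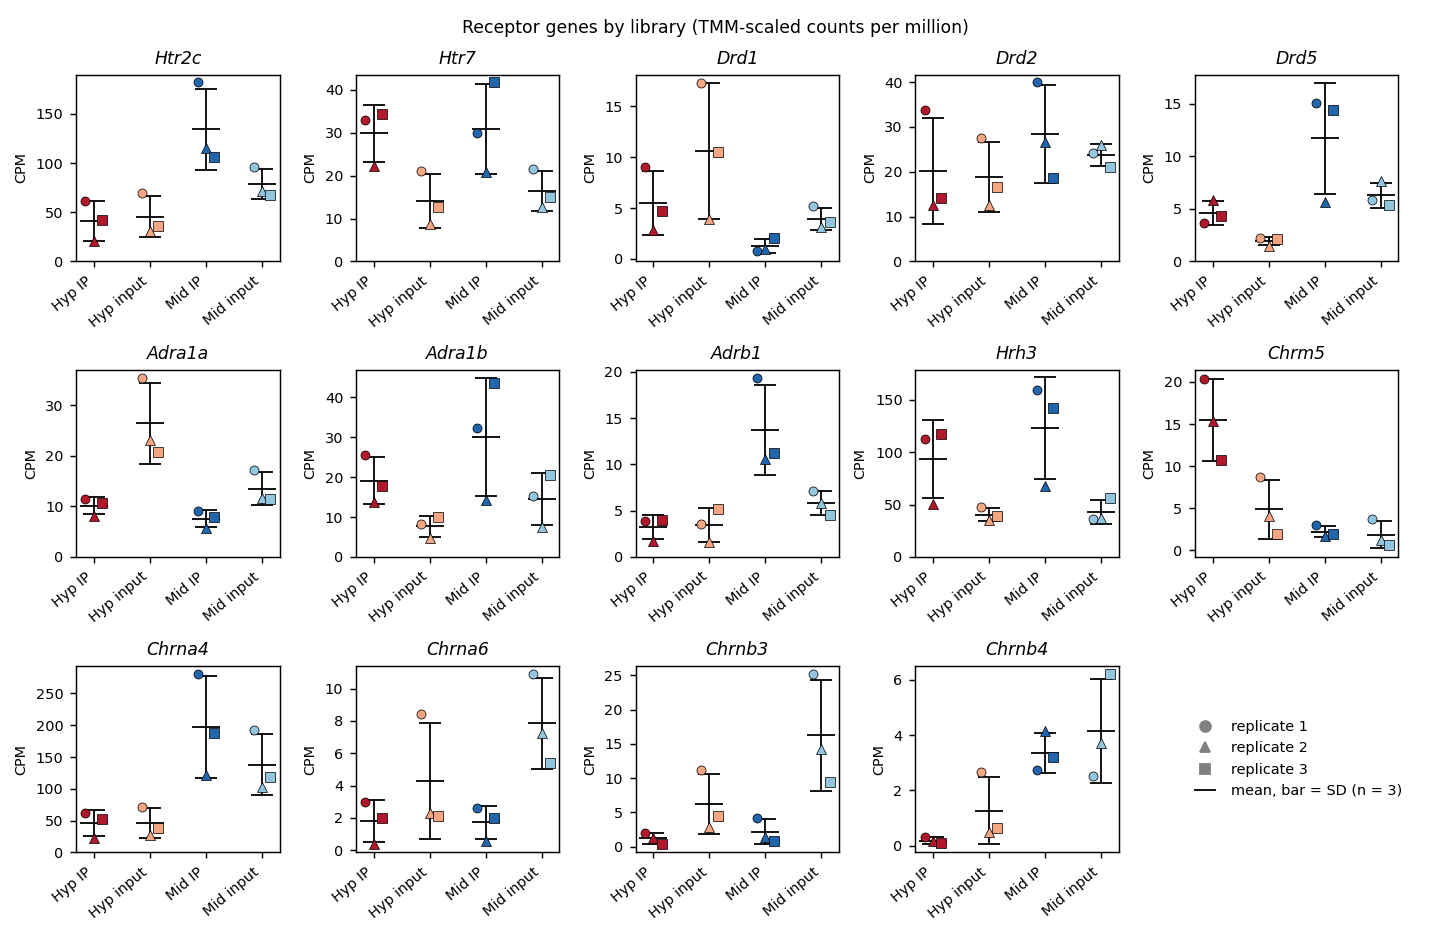
TMM-scaled CPM of 14 receptor genes (y axes, each with its own scale) in the 3 libraries of each group (x axes: Hyp, hypothalamus; Mid, midbrain), with the mean and SD (n = 3). Hrh3, Htr7, Drd5 and Adra1b lie higher in hypothalamus IP than in hypothalamus input, Adra1a, Chrnb3 and Chrnb4 lie lower, and Chrna4 and Htr2c are highest in midbrain IP.

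In the midbrain, Hrh3 was again higher in IP and Adra1a and Chrnb3 again lower, while Chrna6, Drd1 and Htr2b passed on the lower side here. In all 1 receptor gene was higher in midbrain IP and 5 were lower, of 45 tested, against 14.0% higher and 19.9% lower over all genes, 33.9% in either direction. The median log2 fold change of the receptors was 0.26, against -0.05 over all genes. In 8 of the 45 all 3 IP libraries were above all inputs, and in 11 they were below, against 21.1% and 27.8% of all genes.

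Hrh3 had 159, 67.5 and 142 CPM in midbrain IP, against 36.5, 36.8 and 56.5 CPM in midbrain input. The groups did not overlap and the fitted difference was 2.84-fold (log2 1.51 ± 0.36 SE, adjusted p = 0.00655), a call that held with any 1 library left out. Adra1a had 9.07, 5.78 and 7.85 CPM in midbrain IP, against 17.3, 11.7 and 11.5 CPM in midbrain input. It was lower in each IP library (log2 fold change -0.84 ± 0.27 SE, adjusted p = 0.0322), and lost the call without midbrain input replicate 1 (adjusted p = 0.137) or midbrain IP replicate 2 (0.113) or 3 (0.0672).

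Chrnb3 and Chrna6 lie side by side at chr8:27368711-27413944 (GRCm38, Chrnb3 on the plus and Chrna6 on the minus strand), and their subunits assemble together. Chrnb3 had 4.21, 1.48 and 0.846 CPM in midbrain IP, against 25.2, 14.2 and 9.41 CPM in midbrain input, a fall of 2.90 ± 0.73 SE on the log2 scale (adjusted p = 0.00928) that held with any 1 library left out. Chrna6 had 2.61, 0.595 and 1.99 CPM in midbrain IP, against 10.9, 7.26 and 5.39 CPM in midbrain input. It fell by 2.18 ± 0.77 SE (adjusted p = 0.0452). No IP library of either gene reached an input library. The Chrna6 call was the less stable one: it was lost when any 1 midbrain library was left out, and without hypothalamus input replicate 2 or hypothalamus IP replicate 3, with adjusted p-values of 0.0514 to 0.128, and also with no filter on low counts (0.054). Of 8 dopamine neuron markers, 6 were lower in midbrain IP, their sum at 42.7 to 62.1 CPM in midbrain IP against 196 to 245 CPM in midbrain input, with none at 0. The part of dopamine neurons in the fall of Chrnb3 and Chrna6 was not tested.

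Drd1, the Gs-coupled receptor known from striatal projection neurons, had 0.786, 0.979 and 2.05 CPM in midbrain IP, against 5.17, 3.09 and 3.62 CPM in midbrain input. It fell by 1.64 ± 0.58 SE on the log2 scale (adjusted p = 0.0462) without overlap. The call was lost without midbrain IP replicate 1 or 2, any midbrain input, or replicate 3 of hypothalamus IP or hypothalamus input (adjusted p = 0.054 to 0.136), with limma-voom (0.131), with no filter (0.0518) and without Rn45s (0.053). Drd2 had 40.1, 26.6 and 18.5 CPM in midbrain IP, against 24.1, 25.9 and 21.1 CPM in midbrain input, and the groups overlapped (adjusted p = 0.655). Of 8 striatal markers, Drd1 and Drd2 among them, 2 were lower in midbrain IP, and these were Rgs9 and Drd1 itself. The summed level of the 8 was 210 to 298 CPM in midbrain IP and 183 to 262 CPM in midbrain input.

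Htr2b, outside the rule for named genes because of its low level and named after its values were seen, had 6 counts in midbrain IP and 100 in midbrain input over 3 libraries each. The log2 fold change was -4.01 ± 1.21 SE (adjusted p = 0.023), and the call was lost without midbrain input replicate 1 (adjusted p = 0.0636) or 3 (0.0517) or midbrain IP replicate 2 (0.0667) or 3 (0.0617). In the hypothalamus it had 14 counts in IP and 109 in input (log2 fold change -2.95 ± 1.13 SE, adjusted p = 0.0615), and passed there with DESeq2 (adjusted p = 0.00802) and limma-voom (0.00975). The gene overlaps Psmd1 on the opposite strand. All 10 microglial markers were also lower in midbrain IP, at 2.58 to 6.26 CPM summed in midbrain IP and 59.5 to 95 CPM in midbrain input, and their part in this result was not tested.

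Several receptor genes lay higher in midbrain IP without passing the test. Chrm3 had 29.1, 14.9 and 15.3 CPM in midbrain IP, against 12.8, 7.11 and 5.56 CPM in midbrain input, with no overlap. Adrb1, the Gs-coupled beta-1 adrenergic receptor, had 19.3, 10.6 and 11.2 CPM in midbrain IP, against 7.17, 5.79 and 4.54 CPM in midbrain input (log2 fold change 1.23 ± 0.45 SE, adjusted p = 0.0526), with no overlap. Htr7 had 30, 20.8 and 41.9 CPM in midbrain IP, against 21.6, 12.7 and 15 CPM in midbrain input, overlapping in 1 library (0.91 ± 0.35 SE, adjusted p = 0.0605). Adra1b had a log2 fold change of 1.05 ± 0.44 SE (p adjusted to 0.0875) and Drd5 one of 0.90 ± 0.37 SE (adjusted p = 0.0812). Adrb1 and Htr7 passed with DESeq2 (adjusted p = 0.0286 for Adrb1 and 0.0439 for Htr7). With the replicate number as a block 9 receptor genes were higher in midbrain IP and 5 were lower. Over all 18128 genes tested the block called 3672 higher and 4280 lower. Beside Hrh3, Adrb1, Htr7 and Adra1b, the higher receptors were Chrm3 (log2 fold change 1.22, adjusted p = 0.00419), Htr2c (0.74, 0.00935), Chrna7 (0.73, 0.0254), Chrnb2 (0.67, 0.0107) and Chrna4 (0.47, 0.0247).

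**Figure D3:**
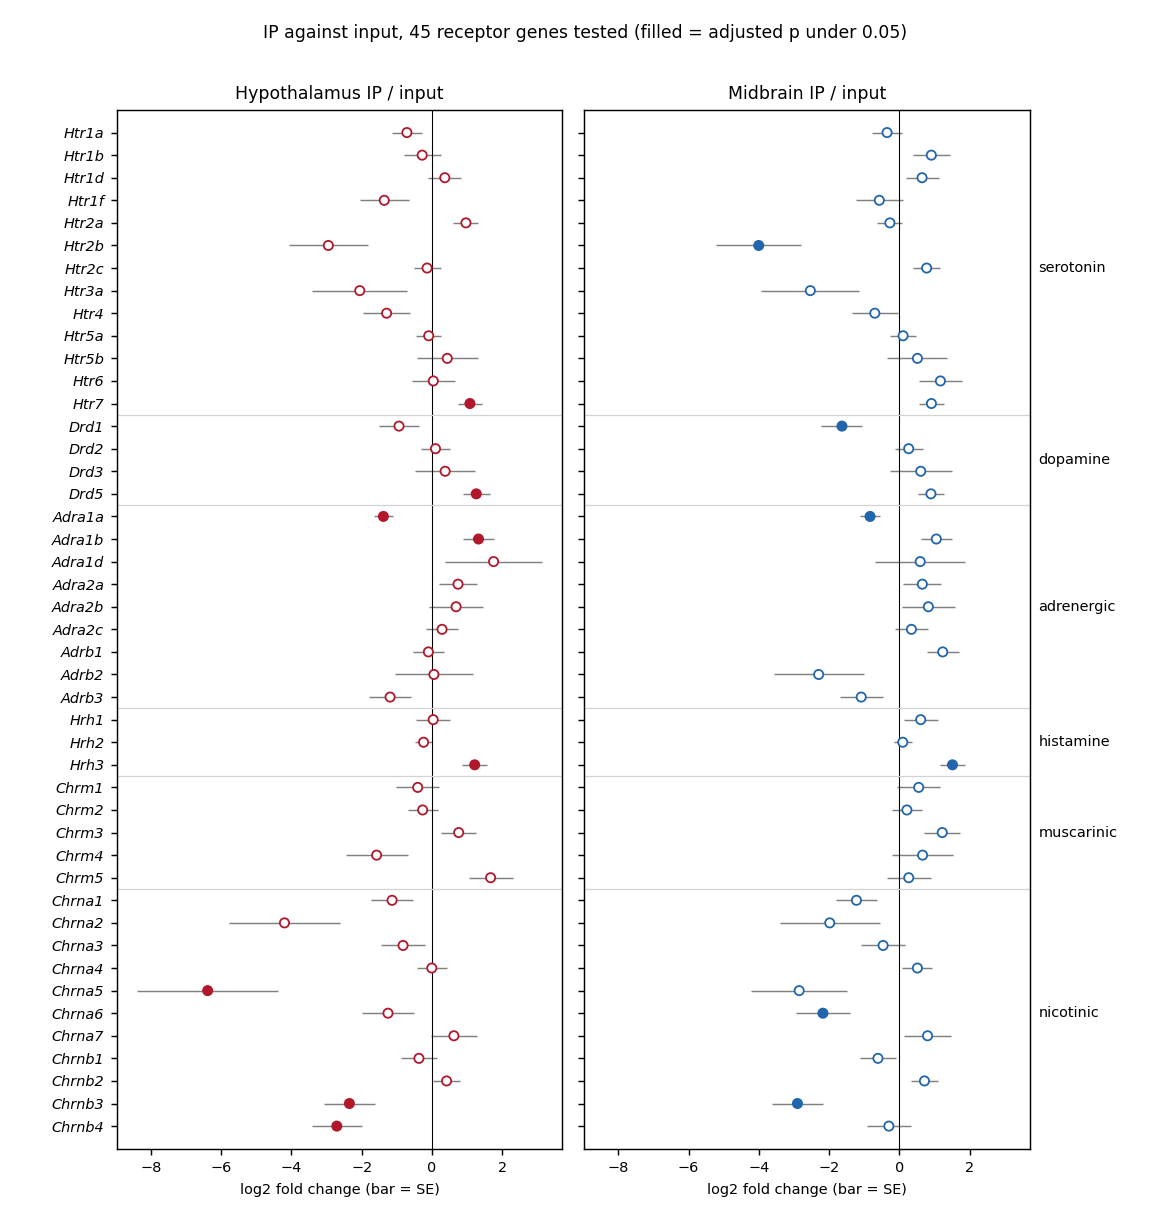
Log2 fold change of IP over input (x axis, bar = SE) for the 45 receptor genes tested (y axis, grouped by family), in the hypothalamus (left) and the midbrain (right), with genes at an adjusted p under 0.05 filled. Hrh3 is filled to the right and Adra1a and Chrnb3 to the left in both regions.

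The test of the regional difference asks whether IP over input differed between hypothalamus and midbrain. No receptor gene passed it, against 0.0772% of all genes tested in either direction, 0.0607% higher and 0.0165% lower. At an unadjusted p under 0.05 there were 2 genes, and DESeq2, limma-voom and the fit with the replicate block also called none. Chrnb4 had the smallest p of them, with IP over input lower in the hypothalamus by 2.41 ± 0.94 SE on the log2 scale (log2 fold change -2.71 in hypothalamus and -0.30 in midbrain, adjusted p = 0.633). Htr2a, a Gq-coupled serotonin receptor, came next with a difference of 1.24 ± 0.50 SE (0.96 in hypothalamus and -0.27 in midbrain, adjusted p = 0.654). The genes called in 1 region only were therefore not shown to differ between the regions.

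Between the IPs, 2 of 11 nicotinic subunits tested and 2 amine receptors were lower in hypothalamus IP than in midbrain IP, and 1 muscarinic receptor was higher. Of 45 genes, 1 was higher (Chrm5) and 4 were lower (Chrna4, Chrnb4, Htr2c and Adrb1), against 2.05% higher and 2.21% lower over all genes, 4.26% in either direction. The median log2 fold change of the receptors was -0.49, against 0.01 over all genes. All 3 hypothalamus IP libraries lay below all midbrain IP libraries for 7 of the 45 and above them for 4, against 8.52% and 10.0% of all genes. Glial markers moved with this contrast: 4 of 10 oligodendrocyte markers were lower (sum 189 to 217 CPM in hypothalamus IP, 288 to 460 CPM in midbrain IP), as were 2 of 10 astrocyte, 1 of 10 microglial and 2 of 10 endothelial and mural markers, and their part in the receptor differences was not tested.

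Chrm5 (chr2:112479171-112480769, GRCm38) had 20.4, 15.4 and 10.7 CPM in hypothalamus IP, against 2.95, 1.73 and 1.97 CPM in midbrain IP. Every hypothalamic library was above every midbrain library, by 7-fold in the fit (log2 2.81 ± 0.65 SE, adjusted p = 0.0328). The gene is best known from midbrain dopamine neurons. The call was lost without hypothalamus IP replicate 1 (adjusted p = 0.0619) or 2 (0.078) or midbrain IP replicate 1 (0.0695), 2 (0.109) or 3 (0.0935).

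Chrna4 had 62.1, 23.5 and 52.8 CPM in hypothalamus IP, against 281, 122 and 188 CPM in midbrain IP. It was lower in every hypothalamic library (log2 fold change -2.10 ± 0.44 SE, adjusted p = 0.0212), and lost the call without midbrain IP replicate 1 (adjusted p = 0.0695) or hypothalamus IP replicate 2 (0.0699), and in a fit of only the compared groups (0.0594). Its partner Chrnb2 overlapped between the IPs (log2 fold change -0.44 ± 0.39 SE, adjusted p = 0.61).

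Chrnb4 had 0.322, 0.165 and 0.0937 CPM in hypothalamus IP, against 2.74, 4.15 and 3.2 CPM in midbrain IP, or 30 counts against 496. It fell by 4.11 ± 0.74 SE on the log2 scale (adjusted p = 0.00928), and the call held with any 1 library left out. The gene lies with Chrna5 and Chrna3 in 1 cluster at chr9:54980880-55048779 (GRCm38), and the other 2 members were also low in hypothalamus IP. Chrna3 had 5.54, 0.955 and 2.6 CPM in hypothalamus IP, against 11.5, 11.9 and 7.41 CPM in midbrain IP, without overlap and without a call (log2 fold change -1.76 ± 0.64 SE, adjusted p = 0.164). Chrna5 had no count in hypothalamus IP and 17, 0 and 2 counts in midbrain IP, so that 1 library carried the difference (adjusted p = 0.158). Of 7 habenula markers, a list that holds Chrnb4 and Chrna3, 2 were lower in hypothalamus IP, Chrnb4 itself being 1 of them, and 1 was higher. The summed level of the 7 was 64 to 144 CPM in hypothalamus IP and 59.5 to 86 CPM in midbrain IP.

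Htr2c (chrX:146962513-147197277), the Gq-coupled serotonin receptor known from the control of feeding, had 61.5, 20.3 and 41.7 CPM in hypothalamus IP, against 182, 115 and 106 CPM in midbrain IP. Its log2 fold change was -1.71 ± 0.40 SE (adjusted p = 0.0324), with no overlap. The call was lost without hypothalamus IP replicate 2 (adjusted p = 0.0898) or 3 (0.0724), midbrain IP replicate 1 (0.102) or 2 (0.0578) or midbrain input replicate 2 (0.051), and in a fit of only the compared groups (0.0925). Adrb1 had 3.93, 1.73 and 3.95 CPM in hypothalamus IP, against 19.3, 10.6 and 11.2 CPM in midbrain IP. It was lower in all 3 libraries, by 4.28-fold (log2 fold change -2.10 ± 0.47 SE, adjusted p = 0.0268), and lost the call without midbrain IP replicate 1 (adjusted p = 0.0894) or hypothalamus IP replicate 2 (0.0936), and in a fit of only the compared groups (0.0604).

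Hrh3 did not pass between the IPs (log2 fold change -0.40 ± 0.35 SE, adjusted p = 0.61), and neither did Htr7 (-0.05 ± 0.34 SE, adjusted p = 0.977). Drd1 had 9.02, 2.83 and 4.68 CPM in hypothalamus IP, against 0.786, 0.979 and 2.05 CPM in midbrain IP, without overlap (2.11 ± 0.59 SE, adjusted p = 0.0677). With the replicate block 800 of all 18128 genes tested were higher and 1224 were lower. Among the receptor genes 3 were higher (Chrm5, Drd1 at 1.95 and Htr2a at 1.38) and 9 were lower. The additions on the lower side were Chrna3 (-2.02, adjusted p = 0.014), Chrm2 (-1.38), Drd5 (-1.31), Htr1b (-1.20) and Hrh2 (-0.92).

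Between the inputs only Drd5 passed, of 45 genes, and it was lower in the hypothalamus. Over all genes 1.00% were higher and 0.601% were lower, 1.61% in either direction. The hypothalamus inputs lay above all midbrain inputs for 4 of the 45 and below them for 7, against 11.9% and 10.2% of all genes. Drd5 had 2.19, 1.49 and 2.09 CPM in hypothalamus input, against 5.84, 7.63 and 5.39 CPM in midbrain input, with no overlap (log2 fold change -1.71 ± 0.38 SE, adjusted p = 0.0478). This call was lost in 10 of 12 fits that left out 1 library, all but those without hypothalamus IP replicate 1 or midbrain IP replicate 2 (adjusted p = 0.0564 to 0.231), with limma-voom (0.131) and with library size scaling (0.0512). No gene was higher with edgeR, with 4 at an unadjusted p under 0.05, while DESeq2 called Adra1a (adjusted p = 0.0195) and limma-voom none. Adra1a had 35.5, 23.1 and 20.7 CPM in hypothalamus input, against 17.3, 11.7 and 11.5 CPM in midbrain input, without overlap.

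Chrna4 had 72, 28.1 and 39 CPM in hypothalamus input, against 193, 103 and 119 CPM in midbrain input. The inputs thus did not overlap either, but the difference did not pass (log2 fold change -1.58 ± 0.44 SE, adjusted p = 0.118). With the replicate block 521 of all 18128 genes tested were higher and 576 were lower. Among the receptor genes 2 were higher, Chrm5 (1.47, adjusted p = 0.0316) and Adra1a (0.96, adjusted p = 0.00832), and 6 were lower. These were Chrna4 (-1.64, adjusted p = 5.93e-05), Chrna3 (-1.74), Drd5 (-1.73), Chrnb3 (-1.44), Htr2c (-0.88) and Adra1b (-0.88).

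**Figure D4:**
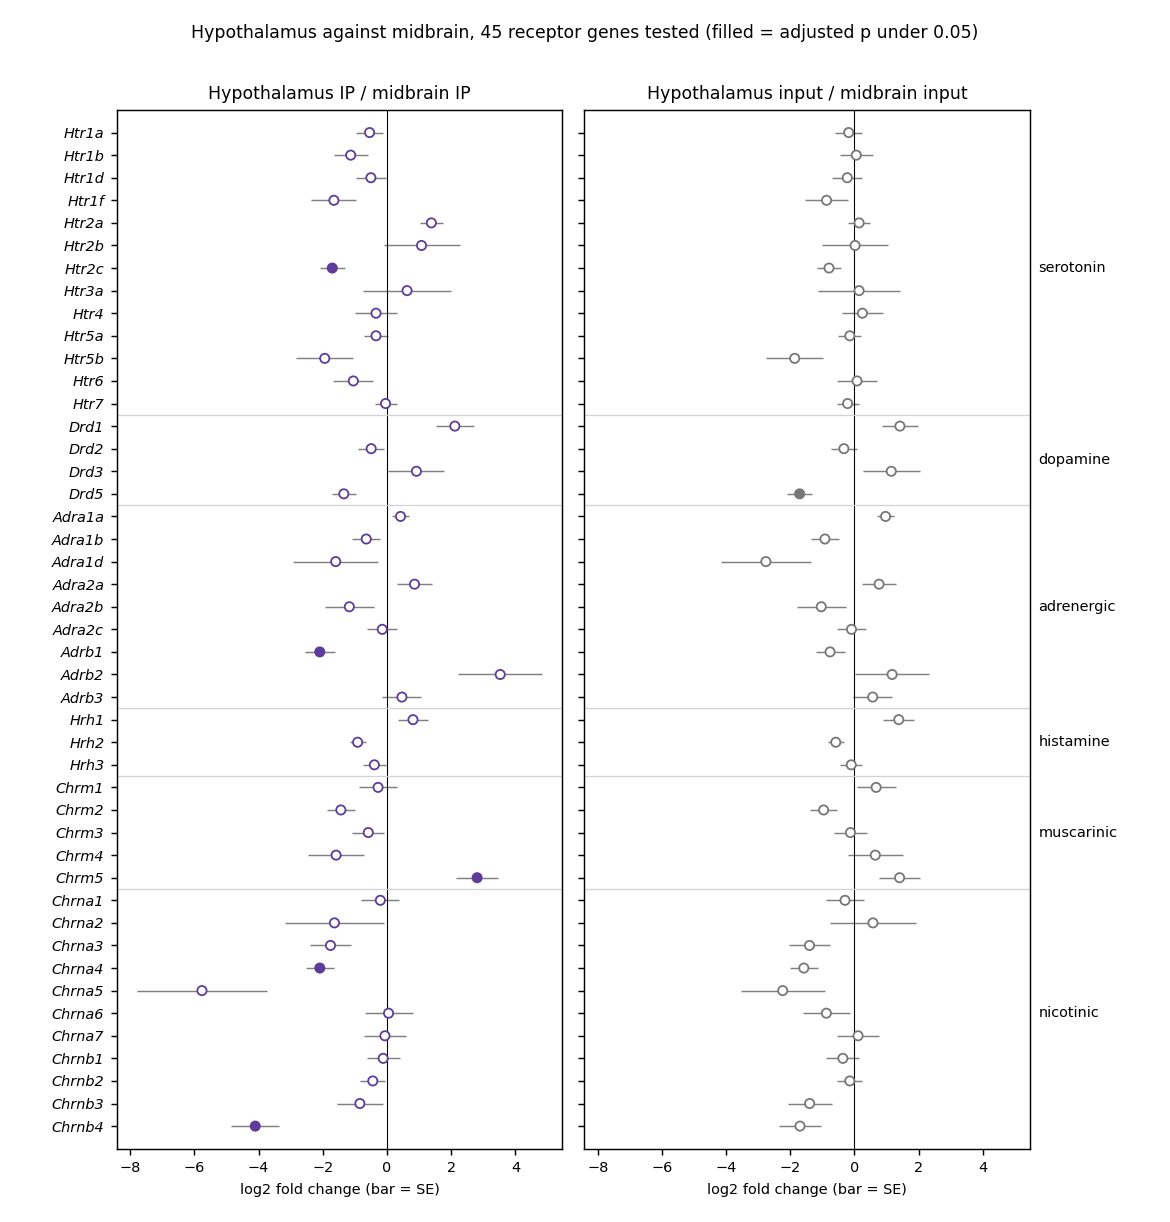
Log2 fold change of hypothalamus over midbrain (x axis, bar = SE) for the 45 receptor genes tested (y axis, grouped by family), in the IPs (left) and the inputs (right), with genes at an adjusted p under 0.05 filled. Chrm5 is filled to the right and Htr2c, Adrb1, Chrna4 and Chrnb4 to the left among the IPs, while among the inputs only Drd5 is filled, to the left.

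Several of the genes that make, carry and break down the ligands were lower in IP. Of 16 monoamine genes tested, 1 was higher and 6 were lower in hypothalamus IP, and 2 were higher and 7 lower in midbrain IP. The shares over all genes were 14.2% higher and 19.6% lower for hypothalamus, 14.0% and 19.9% for midbrain, and no list was tested against these shares. Slc6a3, the dopamine transporter, averaged 1.53 ± 1.20 CPM in hypothalamus IP and 17.8 ± 18.3 CPM in hypothalamus input (log2 fold change -3.54, adjusted p = 0.00405), and 3.16 ± 0.794 CPM in midbrain IP and 48.1 ± 23.6 CPM in midbrain input (-3.93, adjusted p = 0.00239; SD, n = 3 each). Hdc, the histamine synthesizing enzyme, averaged 1.35 ± 0.323 CPM in hypothalamus IP and 16.5 ± 3.94 CPM in hypothalamus input (-3.61, adjusted p = 0.00677). Of 7 acetylcholine genes tested, 5 were lower in hypothalamus IP, among them Chat, the synthesizing enzyme (-4.24, adjusted p = 0.00417), and 2 in midbrain IP, Slc44a1 and Bche.

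Of 9 genes for proteins that fold or tune nicotinic receptors, 2 were higher in hypothalamus IP (14.2% of all genes) and 4 in midbrain IP (14.0% of all genes), and none was lower. Lynx1, a membrane-anchored brake on nicotinic receptors, averaged 643 ± 60.4 CPM in hypothalamus IP and 402 ± 55 CPM in hypothalamus input (log2 fold change 0.68, adjusted p = 0.00299). It averaged 1060 ± 147 CPM in midbrain IP and 714 ± 46.9 CPM in midbrain input (0.57, adjusted p = 0.00793; SD, n = 3 each). Lypd1 was higher in both regions as well (0.72, adjusted p = 0.011, in hypothalamus and 1.11, adjusted p = 0.000996, in midbrain). Between the IPs, Lynx1 (-0.72, adjusted p = 0.013), Lypd6 (-1.63, adjusted p = 0.00613) and Lypd6b (-1.55, adjusted p = 0.0125) were lower in the hypothalamus.

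Downstream of the receptors, of 29 G protein signalling genes 8 were higher and 3 were lower in hypothalamus IP, and 12 were higher and 1 was lower in midbrain IP, beside the same all-gene shares (14.2% and 19.6%, then 14.0% and 19.9%). Gnas, the Gs alpha subunit, was higher in both (log2 fold change 0.69, adjusted p = 0.0019, in hypothalamus and 0.84, adjusted p = 0.000537, in midbrain), and so was Gnao1, a Gi class alpha subunit (0.82, adjusted p = 0.000239, and 0.51, adjusted p = 0.00439). Of 4 subunits of the potassium channels that Gi-coupled receptors open, 2 were higher in both regions: Kcnj3 by 1.17 (adjusted p = 0.00262) in hypothalamus and 0.67 (adjusted p = 0.0407) in midbrain, and Kcnj9 by 1.34 (adjusted p = 0.0155) and 1.11 (adjusted p = 0.0355). Kcnj5 (1.09, adjusted p = 0.0969, in hypothalamus and 0.94, adjusted p = 0.147, in midbrain) and Kcnj6 (-0.33, adjusted p = 0.308, and 0.12, adjusted p = 0.734) did not pass. The genes lower in hypothalamus IP were Plcb1, Ppp1r1b and Rgs9, the last 2 known from striatal dopamine signalling. Rgs9 was also the 1 gene lower in midbrain IP (-1.66, adjusted p = 0.000609).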

How the data were processed

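Each library had a deposited table of whole, unscaled counts for 32531 gene symbols. Per the submitters' processing notes, STAR 2.0.0e aligned the reads to mm10 and HTSeq counted them. The annotation, strand setting and counting mode are not given in the sources used here. The summary rows of the counter and a row named unknown (0 to 7 counts per library) were left out. Reads in the summary row for ambiguous reads are in no gene's count, and their share differed between IP and input.

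Counts were tested in edgeR 4.0.16 (R 4.3.3) with TMM scaling, filterByExpr (18128 genes kept), glmQLFit with robust spread and 1 fit of the 4 group means over 12 libraries, with Benjamini-Hochberg adjustment over all genes at 0.05. CPM are on the TMM scale; fold changes are tested on the log2 scale. Library depth ran from 41909019 to 55148109 counts. DESeq2 1.42.0, limma-voom (limma 3.58.1), 2 other scalings, 2 other filters, a fit without Rn45s, a fit of only the compared groups, a replicate block and left-out libraries were alternatives. The test was checked on simulated counts with the same spread for every gene and no replicate effect. Genes with the fewest counts were left out of the simulation, so the check does not cover them or the replicate differences seen here. Same-numbered libraries, numbered so in the labels, deviated together across genes in hypothalamus IP and input (correlation 0.155 to 0.324), in the IPs (0.113 to 0.301) and in the inputs (0.141 to 0.379), so blocked values stand beside those results. In midbrain IP and input the same-numbered correlations were 0.189, 0.075 and 0.157, 1 of them under 0.1. Differently numbered midbrain IP and input libraries had correlations of -0.141 to -0.025. Blocked midbrain values are given as well.

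The members and the gene lists were chosen with earlier results of these data known. Genes given in every library are those called in at least 1 of 5 comparisons with at least 1 CPM in the highest group, and the family leader per kb of exon. Gene lengths and positions are from GENCODE M21 and promoter windows from RefSeq GRCm38.p6, the assembly of mm10. The values of 1 listed gene are not reported here.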

Additional observations from a re-analysis of the deposited data

How the results depend on the processing

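No called value of a named receptor gene changed sign under any alternative. Over the named genes and comparisons 1710 alternative values stayed on their side of the threshold, 127 lost a call and 60 gained one. For hypothalamus IP against input, main counts of 4 higher and 4 lower became 7 and 7 with the replicate block, 6 and 6 with DESeq2 and 4 and 5 with limma-voom. For midbrain IP against input, 1 higher became 3 with no filter, 4 with DESeq2, 2 with limma-voom, 9 with the replicate block, 3 without Rn45s and 6 with only the groups compared, and 5 lower became 3 with no filter. The block there left 5 lower, and 1 of the same-numbered correlations between midbrain IP and input was under 0.1. Between the IPs, 1 higher became 2 with RLE scaling in edgeR, library size scaling, no filter or a mean of at least 1 CPM. It also became 2 with limma-voom or only the groups compared, 4 with DESeq2 and 3 with the replicate block. The 4 lower became 9 with DESeq2, 9 with the replicate block and 1 with only the groups compared. Between the inputs, 0 higher became 1 with library size scaling, 1 with DESeq2 and 2 with the replicate block, and 1 lower became 0 with library size scaling or limma-voom, 2 with DESeq2 and 6 with the replicate block. The cause of these shifts was not tested. All-gene calls (higher and lower, of 18128 tested) follow for the replicate block, DESeq2 and limma-voom in that order. Hypothalamus IP against input had 3544 and 4316, 2754 and 4253, and 2661 and 4066. Midbrain IP against input had 3672 and 4280, 2670 and 4365, and 2567 and 4011. The IPs had 800 and 1224, 848 and 952, and 349 and 346. The inputs had 521 and 576, 429 and 333, and 210 and 173. With libraries or replicate numbers left out the counts ranged from 0 to 6 higher and 1 to 6 lower for hypothalamus IP against input, 0 to 4 and 1 to 6 for midbrain IP against input, 0 to 2 and 0 to 5 between the IPs, 0 to 0 and 0 to 2 between the inputs, and 0 to 0 for the regional difference. Calls that held with any 1 library left out were lost in part when a replicate number was left out of all groups: Hrh3 in the midbrain without replicate 1 (adjusted p = 0.12) or 3 (0.0505), Chrnb3 in the midbrain without 2 (0.094) and Chrnb4 between the IPs without 2 (0.19) or 3 (0.088), while Adra1a in the hypothalamus held. Library size scaling moved the all-gene median on the log2 scale to -0.246 from -0.082 for hypothalamus IP against input and to 0.135 from 0.011 between the inputs. The regional difference with only the groups compared was not run, since it uses all groups. With 3 libraries a group and replicate 1 apart, a missed call does not show that a receptor was unchanged, and genes under 1 CPM rest on few counts.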
